A study of Mus musculus with 4 samples.

Results

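The genes described here are 10 general pluripotency factors and associated genes, which are shared by naive and primed pluripotent cells or largely restricted to them. They were chosen by symbol, as *Pou5f1*, *Sox2*, *Sall4*, *Utf1*, *Zfp42*, *Dppa2*, *Dppa4*, *Dppa5a*, *L1td1* and *Tdh*, from the 24347 genes listed for each sample, and all 10 symbols were found. RNA was sequenced from day 3 embryoid bodies (EBs), clumps of mouse embryonic stem cells (mESCs) that leave pluripotency when grown in suspension, and the question is how far these genes differ when the promoter of the micropeptide gene *Gm11549* (NEMEP) is deleted. There were 2 WT samples and 2 promoter KO samples, here called WT 1, WT 2, promoter KO 1 and promoter KO 2. All were of the 129/Ola strain, were grown in serum medium from which LIF was withdrawn for EB formation, had no other treatment and were harvested at day 3, so that the groups differ by genotype alone as far as the labels say. The promoter KO mESCs were made with CRISPR/Cas9 and a pair of sgRNAs and picked as clones grown from sorted single cells. The labels do not say which clone each promoter KO sample is, so a difference between genotypes and a difference between cloned lines cannot be told apart.

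Expression is given in FPKM (mapped fragments divided by transcript length in kilobases and by library size), which allows levels of different genes to be compared within a sample. The values summed to 677777 FPKM (WT 1) and 696928 FPKM (WT 2) against 673951 FPKM (promoter KO 1) and 679870 FPKM (promoter KO 2). From the lowest values, WT 2 held 88.9% of the fragments of WT 1, promoter KO 1 held 87.7% and promoter KO 2 held 81.4%, so depth differed little between the samples. Differences between genotypes were tested with limma on log2(FPKM + 1), a scale that understates the change of low genes, in the 11941 genes that 2 or more of the 4 samples held at 1 FPKM or above. All 10 genes passed this filter, and their lowest value in any sample was 10.9 FPKM. A gene was called at a Benjamini-Hochberg adjusted p under 0.05 over all tested genes. With 2 samples against 2, an exact two-sided permutation test of 1 gene cannot go below p = 0.333, and the tests therefore rest on limma, which pools information on the variance across genes. Nothing in the labels says that the samples of a genotype were separate cultures, although the legend in the study calls them biologically independent, so the p-values measure the spread between these samples.

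Pluripotency is held by a small circuit of transcription factors in which OCT4, encoded by *Pou5f1*, and SOX2 bind DNA together and maintain one another's genes. Around this circuit stand genes that are expressed in pluripotent cells and little elsewhere in the embryo, encoding chromatin-bound proteins, RNA-binding proteins and a metabolic enzyme. Some of them are switched off as soon as cells commit to a lineage, whereas OCT4 persists into the primitive streak, where mesendoderm forms.

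The targeted gene *Gm11549* was listed at 0.750 FPKM (WT 1) and 0.522 FPKM (WT 2) against 0 FPKM (promoter KO 1) and 0.0659 FPKM (promoter KO 2). The promoter KO samples were the lower pair, as their labels say, and the gene was too low to be tested. The cell type given for all 4 samples is mesendoderm derived from ES cells. Its markers were present in WT EBs, where the primitive streak factor *T* was at 306 FPKM (WT 1) and 448 FPKM (WT 2) against 50.5 FPKM (promoter KO 1) and 127 FPKM (promoter KO 2). The same WT samples held *Pou5f1* at 1188 FPKM or more. In bulk samples fewer cells of a type and less RNA per cell cannot be told apart.

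In WT EBs the genes spanned a wide range of levels. By mean FPKM the order was *Pou5f1*, *Dppa5a*, *Utf1*, *L1td1*, *Sox2*, *Sall4*, *Tdh*, *Dppa4*, *Zfp42* and *Dppa2*, from 1344 to 15.6 FPKM. Only the last pair overlapped between the WT samples. In promoter KO EBs neighbours in the order overlapped more often, in the pairs *Pou5f1* and *Dppa5a*, *Sox2* and *Tdh*, *Dppa4* and *Sall4*, and *Dppa2* and *Zfp42*. *Tdh* stood below *Sall4* in both WT samples and above it in both promoter KO samples. Together the 10 genes made up 0.431% (WT 1) and 0.383% (WT 2) of all FPKM. In promoter KO EBs the share was 0.751% (promoter KO 1) and 0.579% (promoter KO 2). Such a share weighs abundant genes most. The mean of *Dppa5a* was 767 FPKM in WT against 1490 in promoter KO, and that of *Utf1* was 280 against 722.

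**Figure D1:**
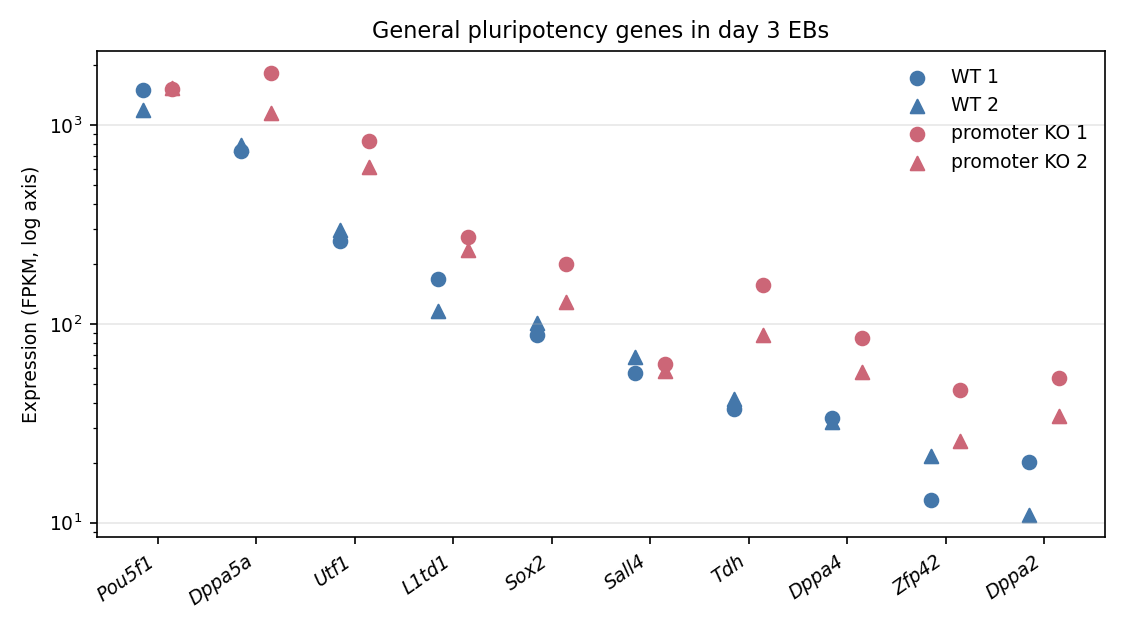
FPKM (log axis) of the 10 pluripotency genes in each sample, ordered by their WT mean; blue points are WT, red points promoter KO, circles sample 1 and triangles sample 2. Both promoter KO points lie above both WT points for 9 genes, and for *Sall4* the genotypes overlap.

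*Utf1*, *Tdh* and *Dppa4* rose in promoter KO EBs, which is 3 of 10 genes at an adjusted p under 0.05 against 1.68% of all tested genes called higher. None of the 10 was called lower (0 by limma), against 1.89% of tested genes. At p under 0.05 before adjustment 8 were higher, against 15.0% of tested genes, and 0 were lower, against 15.6%. When the call asked for a fold change above 2 and p under 0.05 before adjustment, 5 genes were higher (*Dppa2*, *Dppa4*, *Tdh*, *Utf1* and *Zfp42*) against 1.40% of tested genes. In 9 genes neither promoter KO sample was as low as either WT sample, against 32.9% of tested genes. On the log2 scale, the median difference of the 10 genes was 0.96, and that of all tested genes was 0.0042. The calls depended on single samples: without WT 2 or without promoter KO 1, 0 of the 10 genes were called, without WT 1 only *L1td1* was, and without promoter KO 2 the number was 5. They also ended, with 0 called, when genes below the filter were tested too or when limma was run without its intensity trend, with genes of a mean of at least 5 FPKM only *Utf1* was called, and with centring on each sample's median *Tdh* and *Utf1* were.

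**Figure D2:**
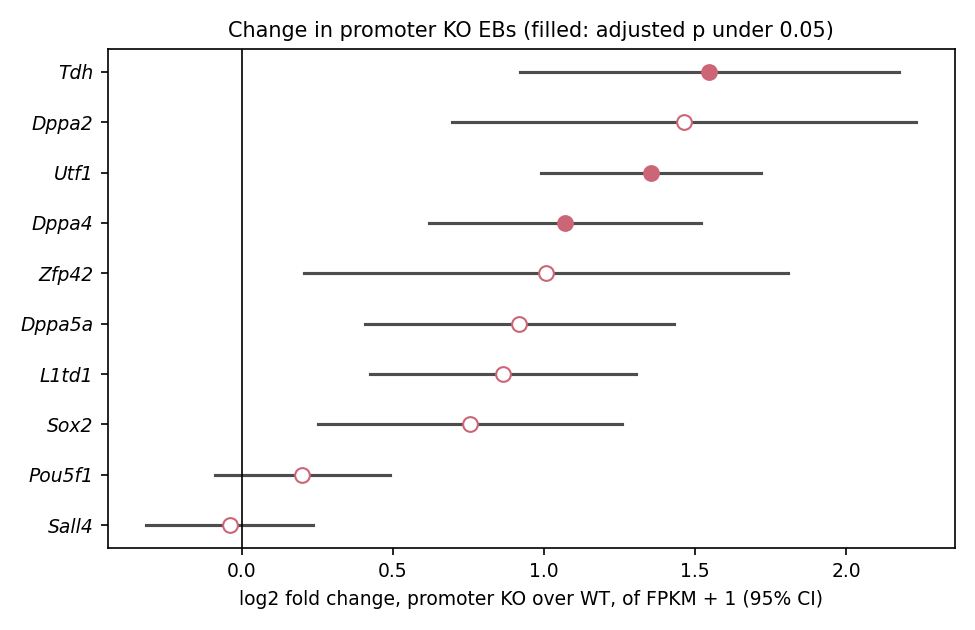
Log2 fold change of FPKM + 1, promoter KO over WT, for each of the 10 genes, with the 95% confidence interval from limma (bars); filled points have an adjusted p under 0.05. *Tdh*, *Utf1* and *Dppa4* are filled, and the intervals of *Pou5f1* and *Sall4* include 0.

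The transcription factors come first. *Pou5f1*, which encodes the POU factor OCT4, was at 1499 FPKM (WT 1) and 1188 FPKM (WT 2) against 1522 FPKM (promoter KO 1) and 1545 FPKM (promoter KO 2). WT 1 was close to both promoter KO samples and WT 2 was lower, so the genotypes were separated by only 23.2 FPKM. The log2 fold change was 0.20 (95% CI −0.09 to 0.49, adjusted p = 0.296), and it was 0.033 without WT 2 and 0.37 without WT 1. *Pou5f1* ranked 83 of the tested genes by its mean in WT and 75 in promoter KO, and it has no near-identical annotated copy in the transcript set searched. *Sox2*, the HMG-box partner of OCT4, was at 88.4 FPKM (WT 1) and 102 FPKM (WT 2) against 200.5 FPKM (promoter KO 1) and 129 FPKM (promoter KO 2). Promoter KO 1 stood apart, and promoter KO 2 was nearer to the WT samples than to it. The log2 fold change was 0.76 (95% CI 0.25 to 1.26, adjusted p = 0.0801), and it was 0.44 without promoter KO 1 and, past the threshold, 1.07 without promoter KO 2. *Sox2* lies on chromosome 3, 1.86 Mb from the deleted promoter's gene.

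*Sall4*, a zinc finger factor that binds the *Pou5f1* locus and recruits deacetylase complexes, was at 56.5 FPKM (WT 1) and 67.8 FPKM (WT 2) against 62.6 FPKM (promoter KO 1) and 57.8 FPKM (promoter KO 2). It was the only one of the 10 genes in which the genotypes overlapped. Its log2 fold change was −0.04 (95% CI −0.32 to 0.24, adjusted p = 0.829), and the sign turned when WT 2 or promoter KO 2 was left out, to 0.089 and 0.016. The interval places any difference of *Sall4* well below the estimates of the 3 genes that were called. It has 1 near-identical copy, *Gm14261*, which is not listed, so its level is uncertain to that extent.

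The ratio of *Sox2* to *Pou5f1* within a sample was 0.0590 (WT 1) and 0.0855 (WT 2) against 0.132 (promoter KO 1) and 0.0833 (promoter KO 2), and the genotypes overlapped. The ratio of *Nanog*, another core factor, outside the 10 genes, to *Pou5f1* was 0.0933 (WT 1) and 0.0953 (WT 2) against 0.0618 (promoter KO 1) and 0.0639 (promoter KO 2). This ratio was lower in both promoter KO samples, in which *Nanog* was at 94.1 and 98.7 FPKM against 140 and 113 in WT (adjusted p = 0.0974).

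*Utf1*, a chromatin-bound protein of pluripotent cells whose enhancer binds OCT4 and SOX2, was at 262 FPKM (WT 1) and 297 FPKM (WT 2) against 828 FPKM (promoter KO 1) and 617 FPKM (promoter KO 2). The lowest promoter KO sample exceeded the highest WT sample by 320 FPKM. *Utf1* rose by a log2 fold change of 1.35 (SE 0.15, 95% CI 0.99 to 1.72, adjusted p = 0.0275), a difference larger than the spread within either genotype. Its ratio to *Pou5f1* was 0.175 (WT 1) and 0.250 (WT 2) against 0.544 (promoter KO 1) and 0.399 (promoter KO 2), with no overlap. *Utf1* has 0 near-identical copies, and its nearest listed neighbour *Kndc1*, 2252 bases away, was at 0.461 and 0.589 FPKM in WT against 1.59 and 0.990 in promoter KO, below the filter.

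Promoter sequences of RefSeq (GRCm38.p6), from 250 bases before to 50 after an annotated start, were available for 5 of the 10 genes, and those of *Utf1*, which was called, *Pou5f1*, which was not, and *Zfp42*, which had the octamer, are shown. Capitals mark matches, on either strand, to the GC box GGGCGG, to AGGTCA, a half-site of nuclear receptors, and to ATGCAAAT, the octamer to which POU factors bind. Of 32851 promoters of this length, 35.7% held the GC box, 16.3% the half-site and 1.74% the octamer. *Utf1* (chr7:139943606-139943905, plus strand) had 4 GC box matches between 138 and 56 bases before the start, of which a pair overlap. *Pou5f1* (chr17:35505782-35506081, plus strand, the more upstream of its annotated starts) had 1 GC box and 1 half-site, 45 and 33 bases before the start. *Zfp42* (chr8:43306960-43307259, minus strand, written in the gene's direction) had 1 octamer on the opposite strand, 186 bases before the start, and 2 GC boxes. These matches describe letters in these windows.
Utf1: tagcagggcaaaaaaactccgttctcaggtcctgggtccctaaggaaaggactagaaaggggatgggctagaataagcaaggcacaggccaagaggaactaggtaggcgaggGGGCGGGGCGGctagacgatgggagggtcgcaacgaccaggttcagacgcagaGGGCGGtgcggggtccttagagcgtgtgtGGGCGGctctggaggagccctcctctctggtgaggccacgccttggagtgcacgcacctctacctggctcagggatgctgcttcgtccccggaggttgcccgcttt
Pou5f1: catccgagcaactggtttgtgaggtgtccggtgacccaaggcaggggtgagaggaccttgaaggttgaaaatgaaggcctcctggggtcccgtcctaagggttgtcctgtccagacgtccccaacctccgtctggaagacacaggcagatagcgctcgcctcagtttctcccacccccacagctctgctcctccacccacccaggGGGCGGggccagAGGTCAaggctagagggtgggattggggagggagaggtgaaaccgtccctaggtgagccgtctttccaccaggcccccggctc
Zfp42: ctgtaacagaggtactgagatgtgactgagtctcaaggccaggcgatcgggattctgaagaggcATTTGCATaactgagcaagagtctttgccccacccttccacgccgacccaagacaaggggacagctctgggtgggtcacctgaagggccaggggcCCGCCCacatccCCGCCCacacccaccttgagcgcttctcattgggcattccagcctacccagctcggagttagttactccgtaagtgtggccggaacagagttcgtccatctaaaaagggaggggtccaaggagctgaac

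*Zfp42*, also known as REX1, a zinc finger protein related to YY1 that is lost early when cells leave the naive state, was at 12.9 FPKM (WT 1) and 21.6 FPKM (WT 2) against 46.6 FPKM (promoter KO 1) and 25.7 FPKM (promoter KO 2). Promoter KO 2 was only 4.12 FPKM above WT 2, and the samples of each genotype differed strongly from one another. The log2 fold change was 1.01 (95% CI 0.21 to 1.81, adjusted p = 0.110), and leaving out 1 sample moved it from 0.59 (without promoter KO 1) to 1.42 (without promoter KO 2). *Triml2*, its neighbour 101182 bases away, was at 4.30 and 6.24 FPKM in WT against 16.7 and 9.47 in promoter KO (log2 fold change 1.14, adjusted p = 0.0699). *Zfp42* has 1 near-identical copy, the pseudogene *Zfp42-ps1*, which is not listed, so its level is uncertain to that extent.

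*Dppa2* and *Dppa4* encode SAP-domain proteins that bind chromatin as a pair and prepare genes for early development, and they are neighbours on chromosome 16, 9671 bases apart. *Dppa4* was at 33.6 FPKM (WT 1) and 32.03 FPKM (WT 2) against 85.4 FPKM (promoter KO 1) and 57.3 FPKM (promoter KO 2). The WT samples were nearly equal and both promoter KO samples stood well above them. *Dppa4* rose by a log2 fold change of 1.07 (SE 0.18, 95% CI 0.62 to 1.52, adjusted p = 0.0467), close to the threshold, and it was not called with centring on each sample's median or with a mean of at least 5 FPKM. *Dppa2* was at 20.3 FPKM (WT 1) and 10.9 FPKM (WT 2) against 53.3 FPKM (promoter KO 1) and 34.5 FPKM (promoter KO 2). Its estimate was larger but its WT samples lay further apart, and it was not called (log2 fold change 1.46, 95% CI 0.69 to 2.23, adjusted p = 0.0583). The ratio of *Dppa2* to *Dppa4* was 0.604, 0.340, 0.624 and 0.602 in WT 1, WT 2, promoter KO 1 and promoter KO 2, so that WT 2 stood below the other samples and the genotypes overlapped. Each has 2 near-identical copies that are not listed, and reads shared with them make both levels uncertain.

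*Dppa2* and *Dppa4* activate *Dux* and genes of the 2-cell stage. Of 22 such genes, 20 were listed and 2 passed the filter, and 0 were called by limma (0 also at an unadjusted p under 0.05). *Dux* was at 0.0761 FPKM in promoter KO 1 and at 0 in the other samples. *Zscan4d* was at 1.18 and 0.534 FPKM in WT against 1.73 and 1.09 in promoter KO (adjusted p = 0.309), and *Usp17le*, below the filter, at 0.965 and 0.786 FPKM in WT against 2.04 and 0.832 in promoter KO.

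*Dppa5a* and *L1td1* encode RNA-binding proteins of pluripotent cells, the former with a KH domain and the latter derived from the LINE-1 retrotransposon. *Dppa5a* was at 743 FPKM (WT 1) and 792 FPKM (WT 2) against 1833 FPKM (promoter KO 1) and 1146 FPKM (promoter KO 2). In promoter KO 1 it exceeded *Pou5f1*, with a ratio of 1.20, against 0.496 in WT 1, 0.666 in WT 2 and 0.742 in promoter KO 2. The log2 fold change was 0.92 (95% CI 0.41 to 1.43, adjusted p = 0.0640), which became 0.58 without promoter KO 1 and, past the threshold, 1.26 without promoter KO 2. It has 7 near-identical annotated copies, of which *Pigp*, through a transcript, at 31.3 and 39.8 FPKM in WT against 23.3 and 25.2 in promoter KO is the only listed one above 1 FPKM, and its level is therefore uncertain. *Ooep*, 7932 bases away, which encodes another KH-domain protein, was at 4.31 and 5.47 FPKM in WT against 15.7 and 8.14 in promoter KO (log2 fold change 1.08, adjusted p = 0.0784). The log2 fold change of *Ooep* ranged from 0.64 to 1.51 when 1 sample was left out.

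*L1td1* was at 168 FPKM (WT 1) and 116 FPKM (WT 2) against 275 FPKM (promoter KO 1) and 236 FPKM (promoter KO 2). Of the 9 genes with a positive estimate it is one of those whose promoter KO samples were closer to each other than its WT samples. The log2 fold change was 0.86 (95% CI 0.42 to 1.30, adjusted p = 0.0569), and it was the gene called when WT 1 was left out. The L1TD1 protein is found in complexes with LIN28, and of 8 genes of LIN28 and related RNA-binding proteins 0 were called higher and 1 was called lower, *Igf2bp2* (log2 fold change −0.74, adjusted p = 0.0372; not called with any sample left out). *Lin28a* itself was at 198 and 212 FPKM in WT against 203 and 211 in promoter KO (log2 fold change 0.017, 95% CI −0.17 to 0.21).

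*Tdh*, threonine dehydrogenase, starts the breakdown of threonine on which mESCs depend for glycine and folate-bound carbon. It was at 37.3 FPKM (WT 1) and 41.96 FPKM (WT 2) against 157 FPKM (promoter KO 1) and 87.9 FPKM (promoter KO 2). Both promoter KO samples lay far above WT, and promoter KO 1 was 1.78 times promoter KO 2. *Tdh* rose by a log2 fold change of 1.55 (SE 0.26, 95% CI 0.92 to 2.17, adjusted p = 0.0440), and it was not called with a mean of at least 5 FPKM. Its ratio to *Sall4* was 0.659 (WT 1) and 0.619 (WT 2) against 2.50 (promoter KO 1) and 1.52 (promoter KO 2). It has 1 near-identical copy, *Gm13929*, which is not listed.

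Other genes of the threonine, glycine and folate pathways were looked at beside *Tdh*, without a test of the difference from it. Of 18 listed, 17 passed the filter and 0 were called (limma; p before adjustment was under 0.05 for 4 higher and 0 lower genes), with a median log2 fold change of 0.19. *Gcat*, which acts directly after TDH to yield glycine, was at 61.0 and 51.1 FPKM in WT against 50.9 and 55.9 in promoter KO (log2 fold change −0.06, 95% CI −0.34 to 0.21). *Mat2a*, which makes S-adenosylmethionine, the methyl donor, was at 124 and 105 FPKM in WT against 225 and 171 in promoter KO (log2 fold change 0.78, adjusted p = 0.0523). *Ahcy*, which breaks down S-adenosylhomocysteine, was at 123 and 108 FPKM in WT against 136 and 122 in promoter KO.

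Of the 19 nearest listed neighbours of the 10 genes that are not themselves among them, 9 were tested, 0 were called by limma and 7 had a positive estimate, against 50.5% of all tested genes. The promoter KO samples were unequal across the 10 genes. Promoter KO 1 was above promoter KO 2 in 9 of them, with a ratio from 0.985 (*Pou5f1*) to 1.81 (*Zfp42*), against 46.5% of all tested genes. As a distance from the WT mean on the log2(FPKM + 1) scale, the median of the 10 genes was 1.30 in promoter KO 1 and 0.67 in promoter KO 2. This order was common among called genes as a whole, since 71.6% of those called higher were above promoter KO 2 in promoter KO 1, and 82.3% of those called lower were below it. The markers of mesendoderm followed the same order, with medians of −1.98 and −1.53, and promoter KO 1 was the farther in all 14 of them. Extraembryonic endoderm markers did not, with 1.07 in promoter KO 1 and 1.24 in promoter KO 2.

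**Figure D3:**
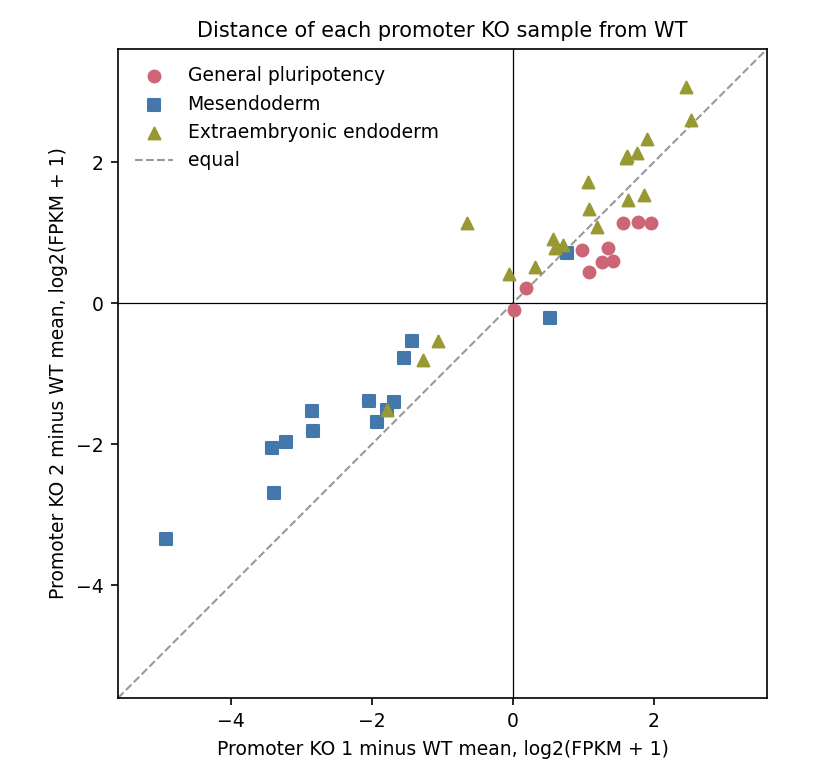
Distance of promoter KO 1 (horizontal axis) and promoter KO 2 (vertical axis) from the WT mean, both in log2(FPKM + 1), for the 10 pluripotency genes (circles), mesendoderm markers (squares) and extraembryonic endoderm markers (triangles); the dashed line marks equal distance. Of the pluripotency genes, 8 lie farther from WT in promoter KO 1.

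The 30 other pluripotency genes gave a wider frame, and for these and the lists that follow, as for the 10 genes, 0 genes were called without WT 2, without promoter KO 1 or with no filter beyond a value above 0. Of the 39 genes called among the 10 and all lists, 11 were called without the intensity trend, 18 without WT 1 and 26 without promoter KO 2. Of the 30 other pluripotency genes, 29 were tested, 2 were called higher and 1 lower, and their median log2 fold change was 0.57. Before adjustment, limma p was under 0.05 for 13 higher and 2 lower genes of this list. As with the 10 genes, promoter KO 1 was mostly the farther from the WT mean, in 25 of the 29. Their median distances on the log2(FPKM + 1) scale were 0.71 in promoter KO 1 and 0.36 in promoter KO 2. *Dnmt3l*, a cofactor of de novo DNA methylation, rose (log2 fold change 1.92, adjusted p = 0.0422), as did the nuclear receptor *Nr5a2* (1.20, adjusted p = 0.0431, or 1.90 with a pseudocount of 0.1), whose values of 0.596 and 0.842 FPKM in WT and 3.52 and 2.42 in promoter KO were far below those of the 10 genes. *Nr5a2* passed the filter only through promoter KO, the genotype in which it is high, so nothing is drawn from its call. The Nodal co-receptor *Tdgf1* fell (−0.55, adjusted p = 0.0422). Of 5 targets of OCT4 and SOX2 outside the 10 genes, 4 are also among these 30, and the other, *Spp1*, rose, at 4.97 and 7.72 FPKM in WT against 28.3 and 18.6 in promoter KO (log2 fold change 1.73, adjusted p = 0.0389). Of 17 genes of the chromatin complexes that bind with these factors, 1 was called, *Zfp462* (log2 fold change 0.94, adjusted p = 0.0389), and the median was 0.07. Without WT 1, *Dnmt3l*, *Nr5a2*, *Tdgf1*, *Spp1* and *Zfp462* were not called, and *Zfp462* was also not called without promoter KO 2, and thus not with any sample left out.

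Genes of the primed epiblast, the state between naive pluripotency and the streak, were mixed: of 12 tested, 3 were called higher and 2 lower, with a median log2 fold change of 0.12. The POU factor *Pou3f1* rose from 44.6 and 40.2 FPKM in WT to 88.9 and 87.0 in promoter KO (log2 fold change 1.04, adjusted p = 0.0208), and *Dnmt3a* (0.81, adjusted p = 0.0442) and *Sox3* (0.70, adjusted p = 0.0493) rose as well. *Cdh2*, the cadherin of the streak (−1.61, adjusted p = 0.0384), and *Zic2* (−0.60, adjusted p = 0.0389) fell. *Dnmt3a*, *Sox3* and *Zic2* were not called with any sample left out, and *Sox3* was also not called with a pseudocount of 0.1, centring, quantile normalization or a mean of at least 5 FPKM. Among 11 paralogs of the POU, SOX, SALL and REX1 factors, 9 were tested and *Pou3f1* and *Sox3* were again those called higher, *Sox3* with the same limits, while *Sall3* fell (−0.78, adjusted p = 0.0472; not called with centring, with a mean of at least 5 FPKM, without the trend or with any sample left out).

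**Figure D4:**
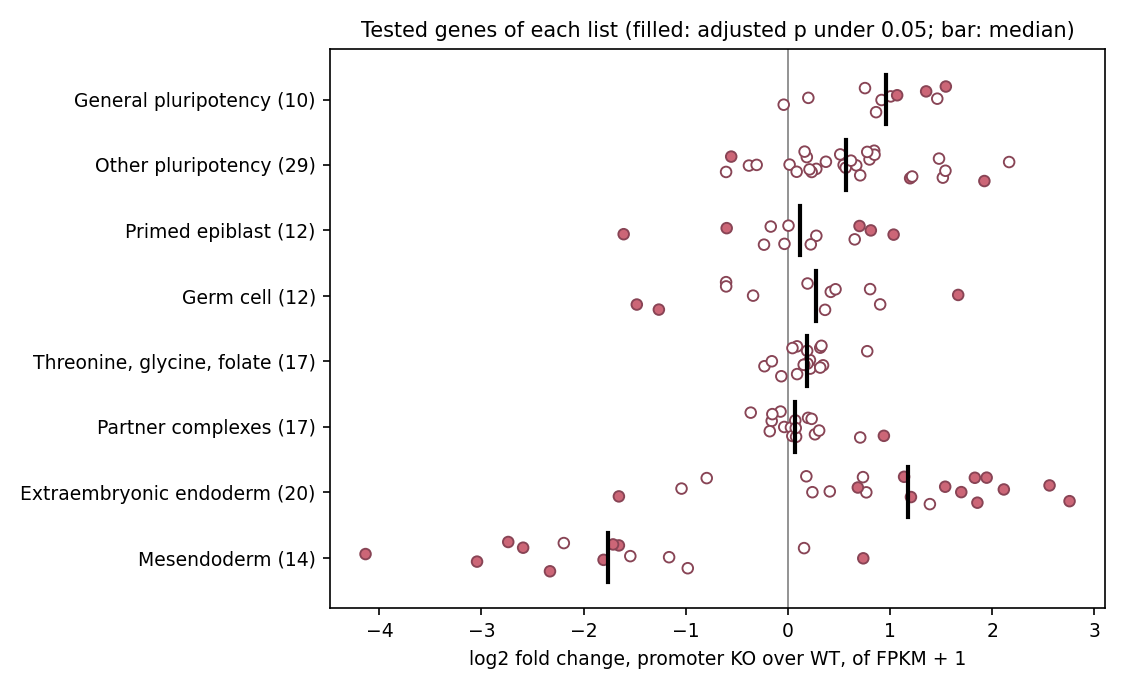
Log2 fold change of FPKM + 1, promoter KO over WT, of each tested gene in 8 lists, with the number tested in parentheses; filled points have an adjusted p under 0.05 and bars mark medians. The 10 general pluripotency genes have a median of 0.96, and the mesendoderm markers a median of −1.76.

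Markers of other cell types moved with the genotype beside these genes, and their part in the result was not tested. Of 14 mesendoderm markers, 8 were called lower and 1 higher, *Nodal* (log2 fold change 0.74, adjusted p = 0.0389; not called without promoter KO 2), and their summed level was 1126 FPKM (WT 1) and 1390 FPKM (WT 2) against 383 FPKM (promoter KO 1) and 553 FPKM (promoter KO 2), with *T* the most abundant except in promoter KO 1, in which *Nodal* was. *Mesp1* (log2 fold change −4.14, adjusted p = 0.0467), *Lhx1* (−3.04), *Mixl1* (−2.74) and *Evx1* (−2.59) had the largest decreases, of which *Mesp1* and *Evx1* were no longer called with a pseudocount of 0.1, centring or a mean of at least 5 FPKM, *Evx1* also not with quantile normalization, and *Mixl1* and *Evx1* not without WT 1. The sums of the mesendoderm markers and of the 10 genes thus stood in opposite orders between the genotypes. For the 10 genes they were 2922, 2669, 5064 and 3936 FPKM in the same samples. These sums weigh abundant genes most, among them *Dppa5a*, which was not called and whose level is uncertain. Of 22 extraembryonic endoderm markers, 20 were tested, 11 were called higher and 1 lower (*Gata6*, also counted among the mesendoderm markers and not called without promoter KO 2), and their summed level was 177, 226, 355 and 440 FPKM. *Sparc* was the most abundant. The largest increases were those of *Lama1* (2.76, adjusted p = 0.0208), *Amn* (2.56), *Col4a2* (2.11) and *Cubn* (1.95, or 3.74 with a pseudocount of 0.1). *Hnf4a* was at 0.260 and 0.293 FPKM in WT against 0.757 and 1.24 in promoter KO, below the filter. *Thbd* was at 0.156 FPKM at most. Before adjustment, limma p was under 0.05 for 15 higher genes and 3 lower ones, *Gata6*, *Sox17* and *Pdgfra*. *Sox17* was at 13.3 and 17.2 FPKM in WT against 6.77 and 10.2 in promoter KO. *Pdgfra* was at 2.19 and 6.78 FPKM in WT against 1.07 and 1.84 in promoter KO. For *Gata4* the genotypes overlapped, at 5.02 and 19.4 FPKM in WT against 9.68 and 13.8 in promoter KO. *Cubn* was at 0.362 and 0.0686 FPKM in WT against 3.09 and 4.29 in promoter KO. *Sox7*, also among the 11, was at 0.289 and 0.221 FPKM in WT against 1.87 and 1.66 in promoter KO. Both passed the filter only through promoter KO, the genotype in which they are high, so nothing is drawn from their calls.

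Germ cells express several of the 10 genes, and of 15 germ cell markers 12 were tested, 1 was called higher (*Rhox5*, log2 fold change 1.67, adjusted p = 0.0493) and 2 lower (*Tfap2c*, −1.48, adjusted p = 0.0422, and *Dnd1*, −1.26, adjusted p = 0.0433). *Rhox5* was no longer called with a pseudocount of 0.1, centring, quantile normalization, a mean of at least 5 FPKM or without WT 1, and *Tfap2c* and *Dnd1* were not without promoter KO 2. Their summed level was 123, 154, 188 and 131 FPKM, *Sycp3* was the most abundant in WT and *Rhox5* in promoter KO, and *Prdm14* was at 0.645 FPKM at most. Of 14 neuroectoderm markers, only *Nes* and *Zfp521* passed the filter and 0 were called by limma (p before adjustment was under 0.05 for 2 lower and 0 higher genes). Their summed level was 25.6, 27.8, 10.7 and 18.4 FPKM, most of it *Nes*, at 21.6 and 24.5 FPKM in WT against 6.94 and 14.7 in promoter KO. The neural factors *Sox1* (0.0523 and 0.0942 FPKM in WT against 0.357 and 0.269 in promoter KO) and *Pax6* (0.1002 and 0.164 against 0.565 and 0.544) had the opposite order, whereas *Six3* (0.404 and 0.312 against 0.118 and 0.184) was lower in promoter KO, all 3 below the filter, and *Neurog2* and *Dbx1* were under 0.1 FPKM in all samples. Of 12 trophoblast markers, 7 were tested and 1 was called lower by limma, *Tfap2c* again. Before adjustment p was under 0.05 for 4 lower genes and 1 higher gene. The summed level was 150, 283, 102 and 139 FPKM, with *Krt8* the most abundant and *Tpbpa* and *Prl3d1* at 0. Of 12 mesoderm and blood markers, 5 were tested and 1 was called lower by limma, *Etv2* (−1.84, adjusted p = 0.0244). Before adjustment p was under 0.05 for 3 lower genes and 1 higher gene. The summed level was 85.3, 149, 47.1 and 51.3 FPKM, with *Snai1* the most abundant in WT and *Twist1* in promoter KO. Of 8 fibroblast markers, 3 were tested and 0 were called by limma (before adjustment p was under 0.05 for 1 lower and 0 higher), with a summed level of 64.6, 117, 70.2 and 55.3 FPKM, most of it *Vim*, and *Postn* and *Lum* at 0.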

How the data were processed

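RNA-seq values of day 3 EBs were used, from 2 WT samples and 2 promoter KO samples, with genotype and replicate number from the sample labels. The values the authors deposited were taken as FPKM, because the submitters' processing notes list HISAT2 2.1.0, Cufflinks and Cuffnorm with the mm10 build. The methods of the study name TopHat as the aligner, Cufflinks with a GENCODE annotation, and RPKM as the unit, so which aligner made these values cannot be told apart. Length and library size had thus been normalized by the authors, reads were not used here, and the strand setting is not given in the sources used here.

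Genotype was tested on log2(FPKM + 1) in genes that 2 or more of 4 samples held at 1 FPKM or above, with limma 3.58.1 (R 4.3.3), eBayes fitting a trend on intensity, and Benjamini-Hochberg adjustment over all tested genes. Relative depth was estimated from the values of low genes. Positions are from GENCODE M21 (GRCm38), promoters from RefSeq, and near-identical copies are other genes whose transcript matched by BLAST 2.17.0 at 95% identity or more along 200 bases or more. Python 3.11.15 with numpy 2.4.6, pandas 2.3.3 and, for figures, matplotlib 3.10.9 was used.

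The members and the gene lists were chosen with earlier results of these data known. Named genes are the 10 members, *Gm11549*, the nearest listed gene on either side of each member, and from each other list the genes with an adjusted p under 0.05, up to the 4 largest changes in size, or, where none passed, the 2 with the highest mean FPKM. *T*, *Nanog*, *Lin28a*, *Gcat*, *Dux*, *Pigp*, *Sparc*, *Hnf4a*, *Gata4*, *Gata6*, *Sox7*, *Sox17*, *Pdgfra*, *Zic2*, *Sox1*, *Pax6*, *Six3*, *Nodal*, *Twist1*, *Thbd*, *Prdm14*, *Snai1*, *Sycp3*, *Krt8* and markers at or near 0 were named outside this rule after their values were seen. Alternatives were the replicate number as a block, 0.1 as the pseudocount, testing all genes with any value above 0, a mean of at least 5 FPKM, no intensity trend, quantile normalization, centring of samples on their medians, each sample left out in turn, the log2 ratio of mean FPKM, and a fold change above 2 or below 0.5 with an unadjusted p under 0.05.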

Additional observations from a re-analysis of the deposited data

How the results depend on the processing

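All 9 genes with a positive log2 fold change kept that sign under the 11 alternative settings of the fit, and 0 of the 10 genes were called lower under any of them. The number of the 10 called higher, 3, was 0 with no filter beyond a value above 0, 1 with a mean of at least 5 FPKM, 0 without the intensity trend and 2 with centring on each sample's median, and it ranged from 0 to 5 when 1 sample was left out. Over all tested genes, 201 were higher and 226 lower. These were 0 and 0 with no filter, 95 and 108 with a mean of at least 5 FPKM, 55 and 27 without the trend, and 157 and 126 with centring on each sample's median. Leaving out 1 sample gave from 0 to 238 higher and from 0 to 248 lower. More genes tested with no filter, fewer with the stricter one and fewer samples are part of these settings' construction, and otherwise the cause was not tested. With 1 sample left out, the lone sample of a genotype is assumed to vary like the other genotype.

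With the replicate number as a block, 535 genes were higher and 667 lower, and 6 of the 10 were called higher. Over all tested genes, same-numbered samples deviated together with a correlation of 0.0348. With 2 samples per genotype, this correlation cannot show whether same-numbered samples were handled together, and the labels do not say.

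Of 543 values of 49 named genes, 386 kept direction and side of the threshold, 139 no longer passed, 13 newly passed and 5 turned sign. The latter came from leaving out 1 sample: *Sall4* (range −0.17 to 0.089, positive without WT 2 and, at 0.016, without promoter KO 2), *Atp9a* (−0.14 without WT 1, to 0.42), *Tcf19* (−0.22 to 0.0071, the latter without WT 1) and *Thy1* (−0.12 without promoter KO 1, to 0.54), none of them past the threshold, and the cause was not tested. The SE of *Zfp42*, 0.33, limits what can be said of it.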
